A study of Mus musculus with 48 samples.

Results

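Ribosome biogenesis genes encode the proteins that make, modify, cut and assemble ribosomal RNA (rRNA) into ribosomal subunits. A set of 37 such genes was followed by gene and by isoform in single mouse cells of 2 groups named HEC and AEC. The genes were chosen by name, as known factors of the pathway, with earlier results of these data known. Their transcripts were found by symbol in GENCODE M21. The set accounts for 37 of 21435 genes with a measured transcript and for 148 of 52927 transcripts. The study is about alternative splicing at the emergence of blood stem cells, and it sequenced full-length cDNA of polyA RNA from single cells on a Nanopore PromethION instrument.

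All cells came from wild-type C57 embryos at embryonic day 10, from the aorta-gonads-mesonephros region, where the first hematopoietic stem cells form, and were sorted by FACS. There were 24 HEC cells and 24 AEC cells, grouped by title. The labels do not spell out the names, which in this field usually mean hemogenic and arterial endothelial cells. For HEC cells the cell type tag reads hematopoietic stem cells. No sorting gate and no animal is named for any cell, so each group is 1 sample: no difference was tested, and each SD given is the spread between 24 cells.

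Values are reads per 10000 reads of the cell, here called the level. Each cell's reads are shared out to a fixed total, so a level says nothing of how much RNA a cell held. Depth ran from 96410 to 8897958 reads in HEC cells and from 13261 to 4883854 reads in AEC cells. In the 6 shallowest AEC cells (AEC 1, 7, 8, 10, 12 and 21) the depth was at most 50126 reads, and 1 read there stood for a level of up to 0.754. All 13 hemogenic marker genes had a higher mean in HEC cells, and 11 of 12 arterial markers were at least 2-fold lower there. A few cells went against their group's markers. HEC 7 had the highest summed arterial markers of the HEC cells, at 50.2, against medians of 5.03 in HEC cells and 35.3 in AEC cells; its hemogenic sum was 8.88, against medians of 23.3 in HEC cells and 4.16 in AEC cells. AEC 6 had the lowest arterial sum of the AEC cells, at 5.06, and the highest hemogenic sum, at 10.97. HEC 12 had an arterial sum of 40.7, above the AEC median, with a hemogenic sum of 25.3, above the HEC median. HEC 20 had the lowest hemogenic sum of the HEC cells, at 2.35, with an arterial sum of 4.02. AEC 11, 19 and 20 had summed mesenchymal markers of 109, 148 and 149, against an AEC median of 3.55. Their pan-endothelial sums were 1.73, 3.70 and 1.85, against an AEC median of 39.8.

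A ribosome begins in the nucleolus, where RNA polymerase I copies one long precursor rRNA. Small nucleolar RNAs (snoRNAs), held in protein particles called snoRNPs, guide methylation and pseudouridylation of that precursor, while large assemblies of factors cut it and fold it into a small and a large subunit. Cells that grow and divide quickly make more ribosomes, and the transcription factor Myc is a known activator of many genes of the pathway.

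As a group the members had higher mean levels in HEC cells. The log2 ratio of HEC over AEC means, with 0.1 added to both means, was above 0 for 32 of 37 members (86.5%), against 52.4% of the 8695 genes whose mean over the 48 cells reached 0.1. Its median was 0.75 over the members and 0.04 over all 8695 genes. At least 2-fold higher in HEC were 15 members (40.5%), against 6.35% of all genes, and at least 2-fold lower were 3 members (8.11%), against 9.4% of all genes. All 37 members reached that mean, so none was left out by that minimum. With median-of-ratios scaling, which moved the median of all genes by -0.23, the median of the members was 0.44, 27 members were above 0 (*Gar1*, *Nop10*, *Rrp1b*, *Noc2l* and *Mrto4* were then below it too), 31 lay above the moved median of all genes, and 7 were at least 2-fold higher, against 3.61% of all genes. Means differed by more than the larger of both SDs, with HEC higher, for 8 members (*Fbl*, *Nop58*, *Ncl*, *Npm1*, *Gnl3*, *Wdr43*, *Rrs1* and *Ebna1bp2*), which holds for 1.82% of all genes. Leaving out the 6 shallow AEC cells, 32 members were above 0, with a median of 0.75, and 18 were at least 2-fold higher, against 7.59% of all genes. *Gar1*, *Nop10* and *Rrp1b* were then below 0, and *Pa2g4*, *Ddx18* and *Mdn1* above it. Without AEC 7 and 10 the median was 0.87 with 17 members at least 2-fold higher, against 6.97% of all genes. Without AEC 6, 7 and 10 it was 1.01 with 19, against 8.37% of all genes. Leaving out AEC 11, 19 and 20 and HEC 20, it was 0.88 with 16, against 7.46% of all genes.

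**Figure D1:**
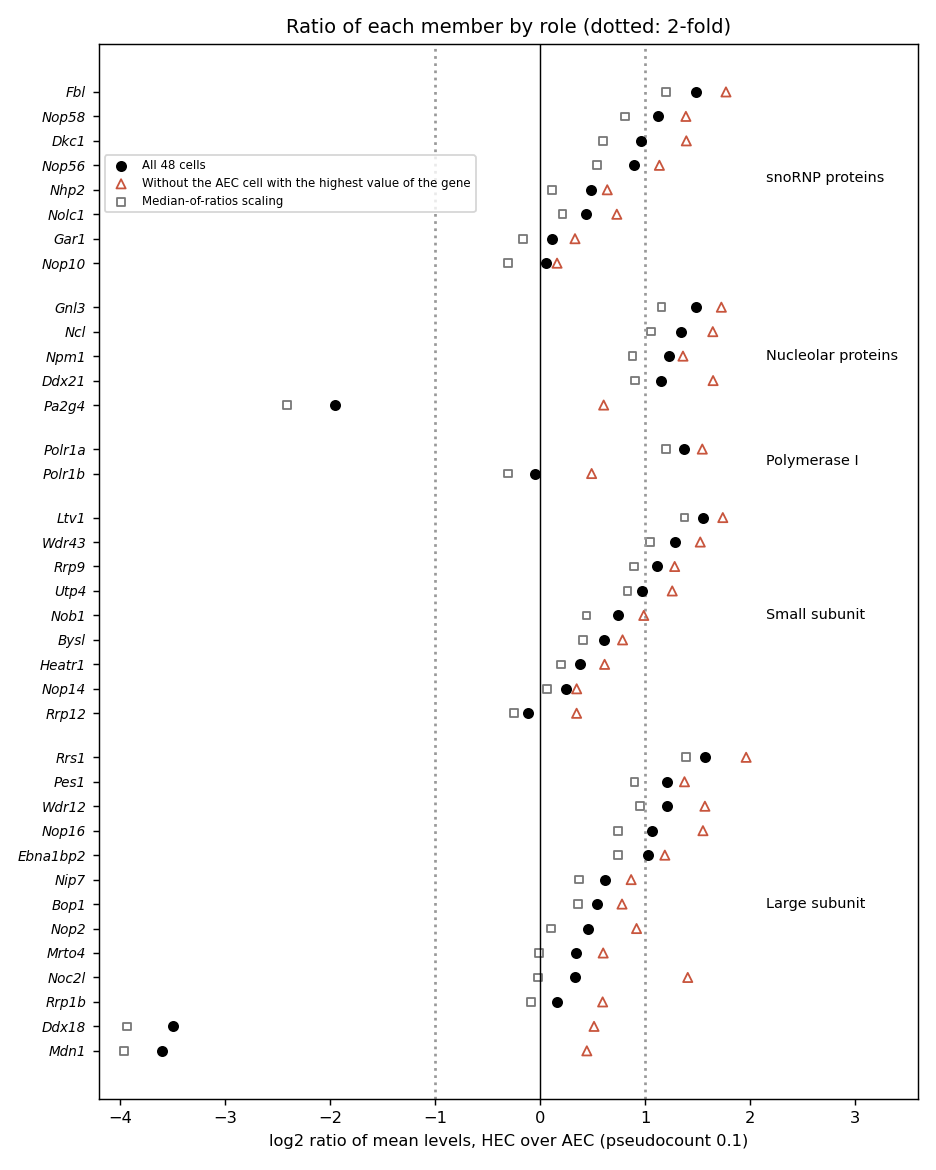
log2 ratio of mean levels, HEC over AEC, for the 37 members, by role. Filled circles use all 48 cells, triangles leave out the AEC cell with the highest value of that gene, squares use median-of-ratios scaling, and dotted lines mark 2-fold. The circles of *Pa2g4*, *Ddx18* and *Mdn1* lie far to the left of all others, and their triangles lie right of 0. Leaving out the highest AEC cell of a gene can only raise its ratio.

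The 3 members far below 0 had most of their AEC sum in single cells. *Pa2g4*, *Ddx18*, *Mdn1* and *Noc2l* each had over 50% of their AEC sum in 1 cell, which is 10.8% of the members against 10.5% of all genes, a share near the background. No member had over 50% of its HEC sum in 1 cell, against 1.9% of all genes. The summed level of the other 33 members was 33.9, 81.0 and 120 in HEC cells (lowest, median and highest), against 16.7, 32.2 and 116 in AEC cells. The ranges overlapped, but all 24 HEC cells were above the AEC median and 1 AEC cell, AEC 6, was above the HEC median. The means were 79.8 ± 18.2 in HEC cells and 38.4 ± 21.02 in AEC cells (SD, n = 24 cells each), a log2 ratio of 1.05. Leaving AEC 6 out, the AEC mean was 35.1 ± 13.4. With all cells, the largest parts of the sum were *Npm1*, averaging 31.4 in HEC cells and 13.4 in AEC cells, and *Ncl*, averaging 10.1 and 3.92. The sum therefore weighs these genes most. Over all 37 members the sums averaged 87.0 ± 19.7 in HEC cells and 81.1 ± 137 in AEC cells, a log2 ratio of 0.10, which became 0.60 without AEC 7.

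**Figure D2:**
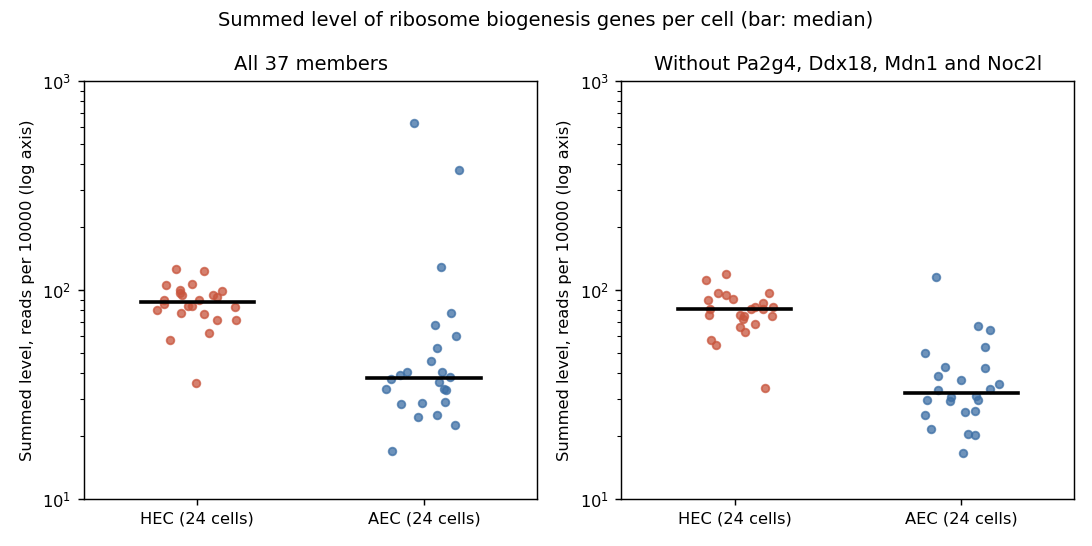
Summed level per cell (reads per 10000, log axis) of all 37 members and of the 33 members left without *Pa2g4*, *Ddx18*, *Mdn1* and *Noc2l*. Each point is a cell and bars are medians. In the right panel all 24 HEC cells lie above the AEC median, and AEC 6 lies within the HEC range.

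A cell of each group lay at the level of the other group. AEC 6, with 1747714 reads, had a sum of 116, the next highest AEC cell had 67.1, and AEC 6 held the AEC maximum of 9 members. HEC 7, with 483078 reads, had the lowest HEC sum, 33.9, against 54.5 in the next lowest HEC cell, and held the HEC minimum of 15 members. In both cells the arterial markers also lay at the level of the other group, and the part of that in the members' levels was not tested. Without both cells the sum averaged 81.8 ± 15.8 in HEC cells and 35.1 ± 13.4 in AEC cells (SD, n = 23 cells each), a log2 ratio of 1.22; the median of the members was then 0.83, and 18 were at least 2-fold higher, against 7.94% of all genes. HEC 20, the cell with few hemogenic transcripts, had a sum of 89.4, above the HEC median. HEC 12, whose arterial sum of 40.7 was also at the level of AEC cells, had a members' sum of 80.8, near the HEC median of 81.0.

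Among the snoRNP proteins, 8 of 8 members had a ratio above 0 and 2 were at least 2-fold higher in HEC cells; the median was 0.69. This group modifies rRNA at sites that snoRNAs choose. *Gar1* and *Nop10* lay below 0 with median-of-ratios scaling and also without the 6 shallow AEC cells. *Fbl*, the methyltransferase of the box C/D snoRNPs (ENSMUSG00000046865, chr7:28169710-28179269, mm10), had levels of 0.207, 3.78 and 7.998 in HEC cells (lowest, median and highest), against 0, 1.01 and 7.30 in AEC cells. The ranges overlapped, but 23 HEC cells were above the AEC median and 1 AEC cell was above the HEC median. Its mean was 3.97 ± 1.80 in HEC cells and 1.35 ± 1.49 in AEC cells, a log2 ratio of 1.49. Pooled over cells, *Fbl* had 13260 reads in HEC cells, or 3.88 per 10000 (exact Poisson 95% interval 3.81 to 3.94), and 4162 reads in AEC cells, or 1.70 (1.65 to 1.76); such intervals cover counting error only.

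*Nop58*, a core protein of the same particles (ENSMUSG00000026020, chr1:59684971-59719044), had levels of 0.207, 2.177 and 5.88 in HEC cells, against 0.0554, 0.739 and 5.75 in AEC cells, and a log2 ratio of 1.12. The groups overlapped over most of their range, with 22 HEC cells above the AEC median. *Dkc1*, the pseudouridine synthase dyskerin of the H/ACA snoRNPs, had levels of 0.319, 2.07 and 4.47 in HEC cells, against 0, 0.554 and 8.36 in AEC cells. Its highest cell was the shallow AEC 10, and the log2 ratio was 0.96 with that cell and 1.39 without it. Without HEC 22, its highest HEC cell, the log2 ratio was 0.90. *Nop56*, the partner of *Nop58*, averaged 3.14 ± 1.63 in HEC cells and 1.65 ± 1.69 in AEC cells (log2 ratio 0.89).

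The other H/ACA proteins differed less. *Nhp2* (ENSMUSG00000001056, chr11:51619735-51623714) had levels of 1.05, 2.85 and 5.56 in HEC cells, against 0.0365, 1.85 and 7.37 in AEC cells. Its log2 ratio was 0.48, and its HEC cells lay inside the AEC range. *Gar1* was at 0.12 on the log2 scale and *Nop10* at 0.06. *Nolc1*, a chaperone of snoRNPs, was at 0.43. *Nop10* averaged 3.95 ± 1.67 in HEC cells and 3.79 ± 2.86 in AEC cells, a difference far inside the spread between cells.

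Of the 5 abundant nucleolar proteins, 4 were at least 2-fold higher in HEC cells and *Pa2g4* was at least 2-fold lower. *Npm1*, which encodes the nucleolar chaperone nucleophosmin (ENSMUSG00000057113, chr11:33152287-33163206), had levels of 18.6, 31.0 and 49.1 in HEC cells, against 3.28, 10.004 and 41.3 in AEC cells. All 24 HEC cells exceeded the AEC median and 2 AEC cells exceeded the HEC median. Means of 31.4 ± 9.18 in HEC cells and 13.4 ± 8.92 in AEC cells gave a log2 ratio of 1.22. *Npm1* has processed pseudogenes, and how reads that fit several copies were shared was not stated in the labels.

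*Ncl*, the nucleolar RNA-binding protein nucleolin (ENSMUSG00000026234, chr1:86344719-86359400), had levels of 2.69, 10.1 and 19.2 in HEC cells, against 0.318, 3.12 and 21.4 in AEC cells, and a log2 ratio of 1.34. The highest single value was that of AEC 6; 23 HEC cells were above the AEC median. *Gnl3*, the nucleolar GTPase nucleostemin (ENSMUSG00000042354, chr14:31012433-31019152), had levels of 0.124, 2.10 and 3.997 in HEC cells, against 0, 0.348 and 3.26 in AEC cells, and a log2 ratio of 1.48. It reached a level of 1 or more in 21 HEC cells and in 5 AEC cells. *Ddx21*, a nucleolar RNA helicase, averaged 1.38 ± 0.827 in HEC cells and 0.565 ± 1.06 in AEC cells (log2 ratio 1.15).

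*Pa2g4*, a growth-regulated protein that binds ribosomes (ENSMUSG00000025364, chr10:128557766-128565987), went the other way on means. Its levels were 0.497, 4.36 and 6.85 in HEC cells, against 0.280, 2.182 and 329 in AEC cells, and its log2 ratio was -1.95. The highest AEC value was that of AEC 10, with 708 of the 21522 reads of that cell, and made up 84.2% of the AEC sum; the next highest AEC cell had 8.69. Without AEC 10 the AEC mean was 2.68 ± 2.40 and the log2 ratio was 0.60. In AEC 10 the transcript Pa2g4-202 ranked second among all transcripts.

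**Figure D3:**
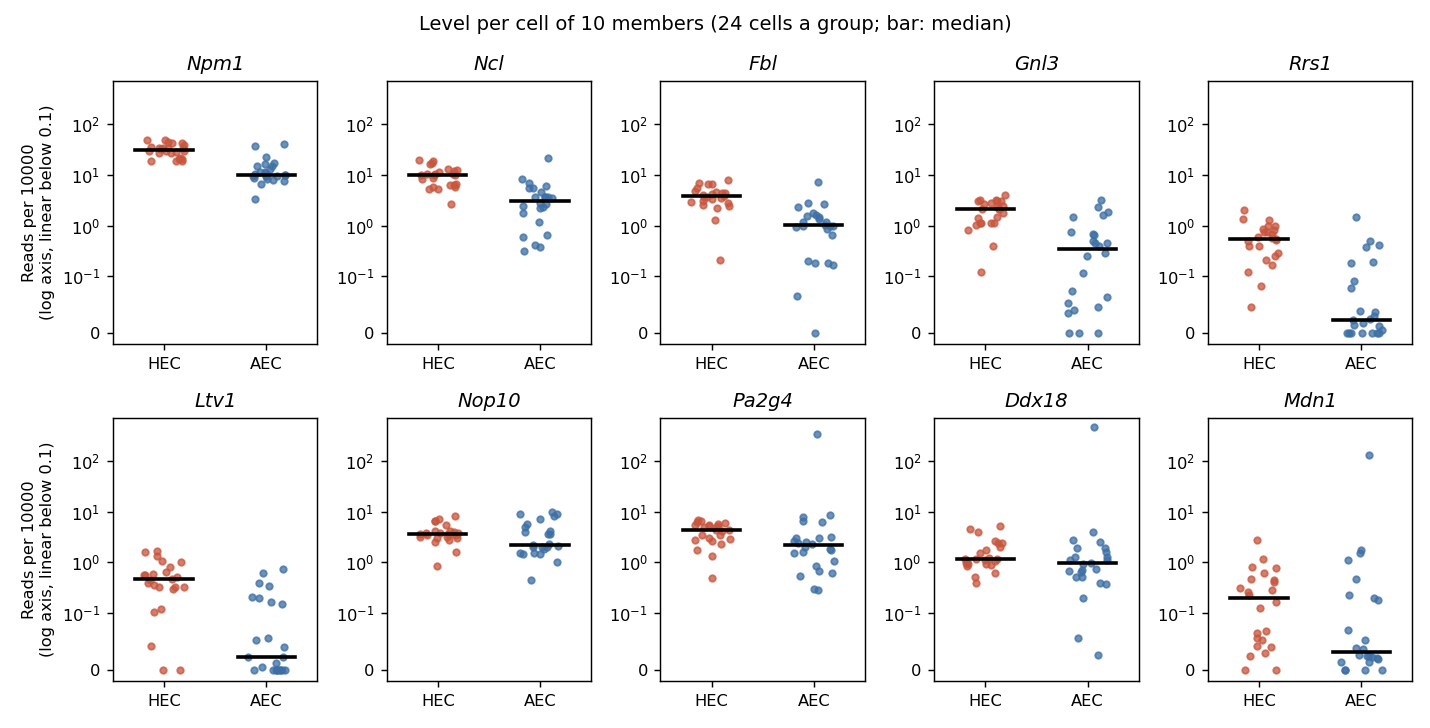
Level per cell of 10 members (reads per 10000; log axis that is linear below 0.1), 24 HEC cells on the left and 24 AEC cells on the right of each panel, with bars at the medians. For *Npm1* all 24 HEC cells lie above the AEC median, *Nop10* overlaps almost fully, and *Pa2g4*, *Ddx18* and *Mdn1* each have 1 AEC cell far above all others.

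The members hold both of the largest subunits of RNA polymerase I, and they differed in their ratios. *Polr1a*, the largest subunit, had levels of 0, 0.235 and 3.14 in HEC cells, against 0, 0.0242 and 0.702 in AEC cells, and a log2 ratio of 1.36. The groups overlapped, with 23 HEC cells above the AEC median. Most of this level was not of the protein-coding Polr1a-201, which had 22.6% of the sum in HEC cells and 0.40% in AEC cells. The nonsense-mediated-decay forms Polr1a-203 and Polr1a-207 had 54.7% and 22.6% in HEC cells, against 94.2% and 5.44% in AEC cells. These shares rest on 1427 reads of the gene in HEC cells and 419 in AEC cells. *Polr1b*, the next largest subunit, had levels of 0, 0.233 and 1.09 in HEC cells, against 0, 0.0143 and 3.50 in AEC cells. Its log2 ratio was -0.05 on means, 0.49 without AEC 17, its highest AEC cell, and -0.16 without HEC 6, its highest HEC cell.

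Of 9 small-subunit factors, 8 had a ratio above 0 and 3 were at least 2-fold higher in HEC cells (median 0.75). *Ltv1*, a factor bound to late small-subunit precursors (ENSMUSG00000019814, chr10:13178140-13193168), had levels of 0, 0.460 and 1.66 in HEC cells, against 0, 0.0224 and 0.754 in AEC cells, and a log2 ratio of 1.55. It was at 0 in 2 HEC cells and in 9 AEC cells, and its highest AEC value was 1 read in the shallow AEC 7. *Wdr43*, a member of the complex that first binds the precursor rRNA (ENSMUSG00000041057, chr17:71615895-71659031), had levels of 0.166, 1.14 and 3.17 in HEC cells, against 0.0260, 0.207 and 2.48 in AEC cells, and a log2 ratio of 1.29. It was above the AEC median in 23 HEC cells and above the HEC median in 3 AEC cells.

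*Rrp9*, a protein of the snoRNP needed for the first cuts, had levels of 0.0365, 0.420 and 1.43 in HEC cells, against 0, 0.0215 and 0.754 in AEC cells, and a log2 ratio of 1.11. All 24 HEC cells were above the AEC median. *Rrp12*, a factor for export of the small-subunit precursor, had levels of 0, 0.0846 and 1.85 in HEC cells, against 0, 0.0168 and 2.45 in AEC cells, and a log2 ratio of -0.12. Its groups overlapped fully. The ratio was 0.35 without AEC 19, its highest AEC cell, and -0.48 without HEC 12, its highest HEC cell. The remaining members were *Utp4* at 0.97, the endonuclease gene *Nob1* at 0.75, *Bysl* at 0.61, *Heatr1* at 0.38 and *Nop14* at 0.25 on the log2 scale. *Heatr1* was lower in HEC cells when reads were pooled, with 0.286 per 10000 (0.268 to 0.304) in HEC cells and 0.366 (0.342 to 0.390) in AEC cells.

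Of 13 large-subunit factors, 11 had a ratio above 0, 5 were at least 2-fold higher and 2 at least 2-fold lower in HEC cells (median 0.54). *Rrs1*, an early assembly factor of the large subunit (ENSMUSG00000061024, chr1:9545408-9547455), had levels of 0.0454, 0.556 and 2.03 in HEC cells, against 0, 0.0232 and 1.49 in AEC cells. Every HEC cell was above the AEC median, and AEC 6 alone was above the HEC median. Its means were 0.634 ± 0.467 in HEC cells and 0.147 ± 0.320 in AEC cells, a log2 ratio of 1.57. The partners *Pes1*, *Wdr12* and *Bop1*, which form one complex of large-subunit assembly, were at 1.21, 1.20 and 0.54. *Nop16* at 1.06 and *Ebna1bp2* at 1.03 were also at least 2-fold higher. Below that lay *Nip7* at 0.62, the rRNA methyltransferase gene *Nop2* at 0.45, *Mrto4* at 0.34 and *Rrp1b* at 0.16.

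AEC 7, the shallowest cell with 13261 reads, held most of the AEC sum of 3 members. *Ddx18*, an RNA helicase (ENSMUSG00000001674, chr1:121553835-121567989), had levels of 0.393, 1.15 and 5.22 in HEC cells, against 0.0260, 0.958 and 451 in AEC cells. AEC 7 had 598 reads of it, 94.5% of the AEC sum, and the next highest AEC cell had 3.95. The log2 ratio was -3.49 with AEC 7 and 0.51 without it.

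*Mdn1*, a very large ATPase that strips factors from large-subunit precursors (ENSMUSG00000058006, chr4:32657119-32775217), had levels of 0, 0.198 and 2.75 in HEC cells, against 0, 0.0313 and 132 in AEC cells. AEC 7 held 95.8% of the AEC sum, and 174 of its 175 reads of the gene were of Mdn1-203, a processed transcript that reached at most 0.0329 in any other cell. The log2 ratio was -3.60 with AEC 7 and 0.44 without it. *Noc2l*, a nucleolar assembly factor (ENSMUSG00000095567, chr4:156236010-156247616), had levels of 0.0522, 0.887 and 2.24 in HEC cells, against 0, 0.162 and 12.1 in AEC cells. AEC 7 had 16 reads of it, which made 60.6% of its AEC sum; the log2 ratio was 0.33 with AEC 7 and 1.40 without.

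Medians over cells were higher in HEC for all 37 members, but this held for 83% of all genes. The coefficient of variation between cells was also lower in HEC for all 37 members, with medians of 65.7% in HEC cells and 150% in AEC cells; of all genes 92.4% had the lower coefficient in HEC. HEC cells had 32 to 37 members above 0, with a median of 37, and AEC cells had 21 to 37, with a median of 34.5; among the 6 shallow AEC cells the median was 25.

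Full-length reads also separated isoforms. The members' rows held 67 protein-coding, 44 retained-intron, 23 processed and 14 nonsense-mediated-decay transcripts, and 146 of 148 were above 0 in some cell. For the 33 members without a dominant cell, retained-intron transcripts made up a median of 5.06% of the summed level in HEC cells (1.16 to 15.6%) and 5.35% in AEC cells (0.971 to 28.6%). Over all genes the medians were 2.96% in HEC cells and 3.08% in AEC cells. Apart from *Polr1a*, which was below the level set here, isoform shares were taken over the group sum for 9 members. These had at least 2 measured transcripts, averaged 1 or more in both groups and were above 0 in 12 or more cells of both. *Fbl*, *Dkc1* and *Ddx18* came almost wholly from 1 protein-coding transcript, with shares of at least 98.7% in each group.

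*Ncl* had the largest retained-intron share of these 9 in both groups. Ncl-201, the protein-coding form, had 67.7% of the sum in HEC cells and 57.6% in AEC cells. Ncl-202, a retained-intron form, had 25.5% in HEC cells and 28.7% in AEC cells, and Ncl-205, a short retained-intron form, had 6.72% in HEC cells and 13.6% in AEC cells. AEC 6 held 39.9% of the AEC sum of Ncl-202. Without AEC 6 the AEC shares were 22.4% for Ncl-202, below that of HEC cells, and 11.04% for Ncl-205. Without HEC 4 the share of Ncl-202, HEC minus AEC, was -5.90 points. The median share of Ncl-201 per cell was 68.0% in HEC cells and 70.2% in AEC cells, the opposite order. Against Ncl-201, Ncl-202 keeps intron 9 (492 bases, chr1:86352634-86353125) and intron 10 (190 bases, chr1:86352320-86352509) on the minus strand. The GENCODE transcripts are shown across both edges of intron 10, with intron bases in capitals, since they are what tells these forms apart.
Ncl-201, spliced: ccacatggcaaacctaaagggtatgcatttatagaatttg
Ncl-202, intron start: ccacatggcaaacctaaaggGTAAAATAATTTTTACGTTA
Ncl-202, intron end: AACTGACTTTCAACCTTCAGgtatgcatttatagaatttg

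*Nop56* (ENSMUSG00000027405, chr2:130274430-130279313) hosts 5 snoRNA genes in GENCODE M21. Nop56-202, protein coding, had 71.3% of the sum in HEC cells and 62.2% in AEC cells. The retained-intron forms Nop56-213 and Nop56-212 had 15.5% and 3.66% in HEC cells, against 19.2% and 10.2% in AEC cells. AEC 6 held 33.4% of the AEC sum of Nop56-213, whose AEC share without AEC 6 was 14.1%, below that of HEC cells. HEC 10 held 54.4% of the HEC sum of Nop56-213. Without HEC 10 the share, HEC minus AEC, was -11.4 points, so the direction rested on single cells. Nop56-201, a shorter coding form, had 6.55% in HEC cells, where 13 cells showed it, and 0.02% in AEC cells, where 1 cell did. Nop56-213 keeps intron 8 (343 bases, chr2:130277133-130277475, plus strand), which holds the snoRNA gene *Gm23187*. Its edges, intron in capitals, show the sequence by which a read of this form differs from a spliced one.
Nop56-202, spliced: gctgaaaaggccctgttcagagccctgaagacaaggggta
Nop56-213, intron start: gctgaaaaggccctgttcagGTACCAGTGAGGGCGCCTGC
Nop56-213, intron end: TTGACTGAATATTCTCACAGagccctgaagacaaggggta

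Among these 9 members, the largest share difference apart from *Pa2g4* was that of *Nhp2*. Nhp2-202, protein coding, had 99.5% in HEC cells and 85.4% in AEC cells, and the retained-intron form Nhp2-201 had 0.53% in HEC cells and 14.6% in AEC cells. AEC 22 held 78.8% of the AEC sum of Nhp2-201, which was seen in 3 AEC cells, and its AEC share without AEC 22 was 3.50%. The kept intron is intron 1 of Nhp2-202 (104 bases, chr11:51619978-51620081, plus strand), shown with its bases in capitals.
Nhp2-202, spliced: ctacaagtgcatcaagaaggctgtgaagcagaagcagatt
Nhp2-201, intron start: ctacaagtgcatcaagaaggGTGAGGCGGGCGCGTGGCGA
Nhp2-201, intron end: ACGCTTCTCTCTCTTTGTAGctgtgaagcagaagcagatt

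*Nop58* used Nop58-215 for 76.2% of the sum in HEC cells and 67.8% in AEC cells, and Nop58-201 for 17.4% in HEC cells and 28.5% in AEC cells. These forms are both protein coding. AEC 18 held 44.8% of the AEC sum of Nop58-201, and the AEC share without AEC 18 was 20.1%. For *Pa2g4*, Pa2g4-202 had 77.0% in HEC cells and 92.3% in AEC cells, and Pa2g4-201 had 22.999% in HEC cells and 7.67% in AEC cells. Without AEC 10 the AEC shares were 68.0% and 32.0%, so the direction turned.

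*Npm1* had the steadiest isoform use among the members with more than 1 common form. Npm1-201 had 76.7% in HEC cells and 78.7% in AEC cells, and Npm1-204 had 19.2% in HEC cells and 15.5% in AEC cells. Both were read in nearly every cell: Npm1-204 was above 0 in 24 HEC cells and in 23 AEC cells. After exon 9 the forms join different last parts, on the minus strand of chromosome 11, and the first bases of each next exon are in capitals to show where they part.
Npm1-201: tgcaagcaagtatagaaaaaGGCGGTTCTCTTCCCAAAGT
Npm1-204: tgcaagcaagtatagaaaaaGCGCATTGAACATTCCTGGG

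**Figure D4:**
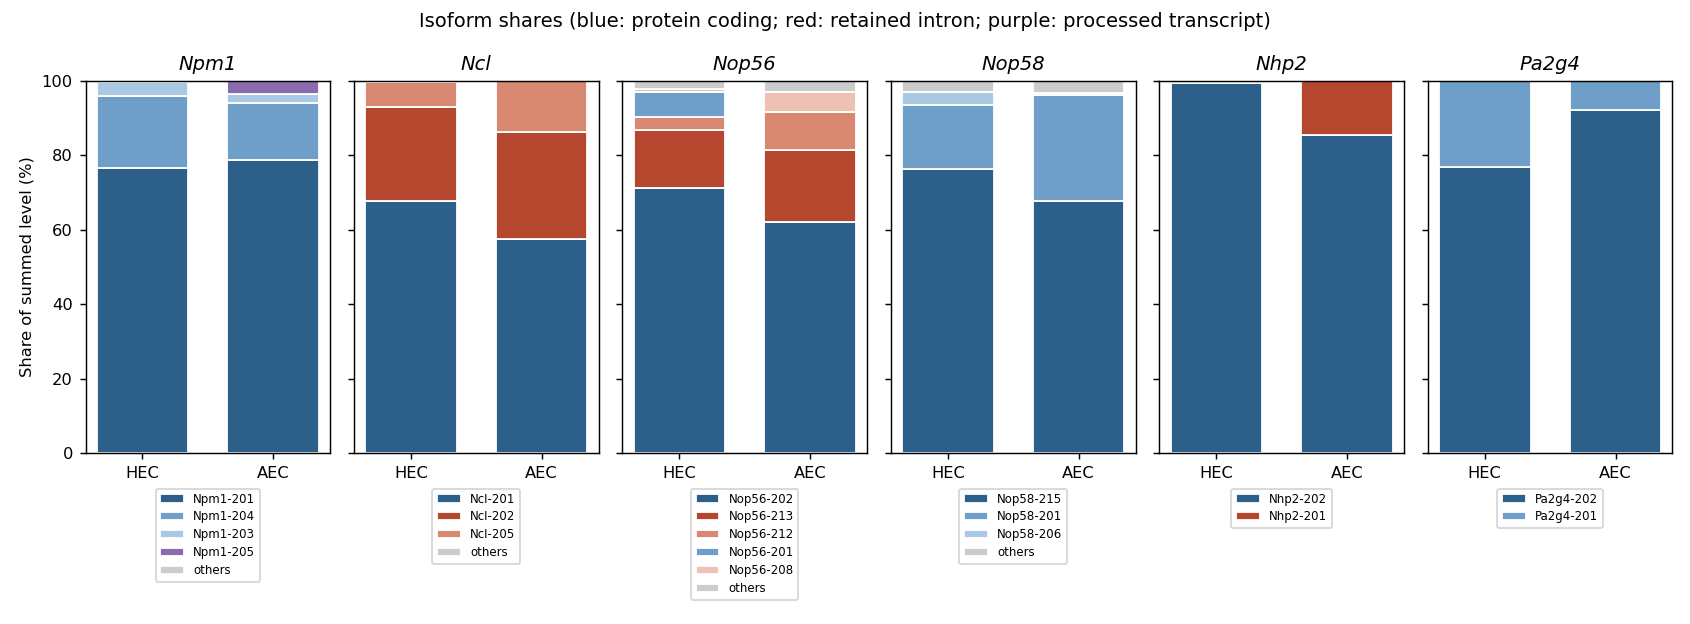
Share of each transcript in the summed level of 6 members (percent), HEC left and AEC right. Blue is protein coding, red is retained intron, purple is a processed transcript, and gray, where drawn, holds transcripts under 3% in both groups. *Npm1* bars are alike in both groups, and Nhp2-201 is a visible block in AEC only, 78.8% of it from AEC 22.

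Several members carry snoRNA genes within their own bounds, on the same strand. In GENCODE M21 these were *Ncl*, *Nop56*, *Nop58*, *Dkc1*, *Wdr43* and *Gnl3*, with 19 snoRNA genes in all. Their ratios ran from 0.89 to 1.48 with a median of 1.20, and 4 of 6 were at least 2-fold higher in HEC cells. The other 31 members ran from -3.60 to 1.57 with a median of 0.54, and 11 were at least 2-fold higher. Mature snoRNAs lack a polyA tail, and this assay reads polyA RNA, so these values are of the host transcripts. A further annotation matters for reading the levels: 12 members overlap another coding gene, among them *Gnl3* with *Pbrm1*, *Nop56* with *Idh3b* and *Dkc1* with *Mpp1*, and whether the counting used strand was not stated in the labels.

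Promoter windows of RefSeq (GRCm38.p6, 250 bases before to 50 after the start) were found for 32 members; *Npm1*, *Bop1*, *Rrp12*, *Rrs1* and *Fbl* had none in the table. CACGTG, the E-box form that Myc and Max bind, reads the same on both strands and was in 6 of 32 windows (18.8%), against 8.09% of 27025 genes. Those members were *Wdr43*, *Pes1*, *Nop2*, *Utp4*, *Ltv1* and *Mdn1*, and 3 of these 6 were at least 2-fold higher in HEC cells, against 15 of all 37 members. Their median log2 ratio was 1.09, against 0.61 for the members without it. CCGGAAG, an ETS-type motif, was on either strand in 10 of 32 windows (31.2%), against 9.93% of all genes; 2 of these 10 were at least 2-fold higher, and their median log2 ratio was 0.47, against 0.92 for the members without it. The third motif searched, a palindrome known for the factor Kaiso (ZBTB33), was in 0 of 32 windows, against 0.525% of all genes. A match is only a run of letters in the window. The 3 windows with an E-box whose genes were at least 2-fold higher are shown, with the E-box in capitals, which begins 17 bases after the start in *Wdr43* (chr17:71615965-71616264, plus strand), 2 in *Pes1* (chr11:3963725-3964024, plus strand) and 28 in *Ltv1* (chr10:13193088-13193387, minus strand).
Wdr43: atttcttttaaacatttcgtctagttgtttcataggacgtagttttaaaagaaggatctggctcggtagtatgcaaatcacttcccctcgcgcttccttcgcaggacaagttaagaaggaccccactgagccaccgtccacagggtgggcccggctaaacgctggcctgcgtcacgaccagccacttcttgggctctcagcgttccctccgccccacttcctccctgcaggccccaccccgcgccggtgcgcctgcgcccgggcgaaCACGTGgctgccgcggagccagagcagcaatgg
Pes1: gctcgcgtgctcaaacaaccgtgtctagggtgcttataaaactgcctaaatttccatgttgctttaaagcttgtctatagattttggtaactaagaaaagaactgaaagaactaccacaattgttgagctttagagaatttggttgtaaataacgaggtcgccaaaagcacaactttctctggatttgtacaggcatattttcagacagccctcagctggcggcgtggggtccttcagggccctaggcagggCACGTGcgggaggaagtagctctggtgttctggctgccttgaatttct
Ltv1: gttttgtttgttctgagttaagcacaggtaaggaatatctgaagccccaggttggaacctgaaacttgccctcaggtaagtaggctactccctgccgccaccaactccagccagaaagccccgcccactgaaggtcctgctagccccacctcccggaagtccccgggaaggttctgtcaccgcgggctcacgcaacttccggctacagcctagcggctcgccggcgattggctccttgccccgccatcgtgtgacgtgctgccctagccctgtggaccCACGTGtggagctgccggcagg

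Other genes of the pathway, in lists chosen by function, had smaller median ratios than the members. Members and lists were chosen with earlier results of these data known, so they are not an independent contrast. The small-subunit processome, which makes the first cuts, had 31 of 38 genes above 0, 5 at least 2-fold higher and 2 at least 2-fold lower, with a median log2 ratio of 0.36. Its highest ratios, counting genes that averaged 0.5 or more, were those of *Utp11* at 1.01 and *Rrp7a* at 0.83. *Utp15* was lowest at -2.24; AEC 7 held 89.7% of its AEC sum, and its log2 ratio without AEC 7 was 0.45. Later small-subunit maturation had 12 of 13 genes above 0 and a median of 0.59. Among its genes that averaged 0.5 or more, *Naa10* was highest at 1.22. That gene encodes a protein N-terminal acetyltransferase and is not an established maturation factor, so its place in the list is doubtful. The RNA-binding *Pno1* was at 0.99, and *Emg1*, an rRNA methyltransferase gene, was lowest at 0.24.

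Large-subunit assembly had 38 of 44 genes above 0, 6 at least 2-fold higher and 1 at least 2-fold lower (median 0.48). *Ftsj3*, a rRNA methyltransferase and processing factor, was highest at 1.61, followed by *Rsl1d1* at 0.90. *Rsl24d1* was lowest at -1.19; AEC 7 held 71.3% of its AEC sum, and the ratio was 0.42 without AEC 7. The remaining RNA polymerase I machinery had 12 of 13 genes above 0 (median 0.65). *Tcof1*, the nucleolar protein treacle, averaged 0.836 ± 0.618 in HEC cells and 0.240 ± 0.365 in AEC cells (log2 ratio 1.46). *Ubtf*, the factor that opens rRNA genes, was at 1.16, and *Polr1d*, a subunit shared with RNA polymerase III, was lowest at 0.26.

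The exosome and rRNA trimming list had 13 of 16 genes above 0 (median 0.36), with *Exosc2* at 1.29 and *C1d* at 0.76 highest. *Exosc10*, the nuclear exosome nuclease, was lowest at -1.0005 and remained at -0.81 without its highest AEC cell. The snoRNP assembly list had 8 of 10 genes above 0 (median 0.34): the ATPase genes *Ruvbl2* and *Ruvbl1* were at 0.98 and 0.04, and *Pih1d1* was at 0.83. All 5 genes of the ribosomal stress list were above 0 (median 0.39), among them *Rpl5* at 0.71, *Trp53* at 0.35 and *Rpl11* at 0.23. With median-of-ratios scaling the medians of the exosome, snoRNP assembly and ribosomal stress lists were 0.06, 0.04 and -0.0039, against -0.19 for all genes.

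The Myc network, whose proteins activate or restrain genes of the pathway, had 5 of 9 genes above 0 and a median of 0.04, the same value as over all genes. *Mga*, a Max partner, was highest at 1.04. *Myc* itself averaged 0.482 ± 0.697 in HEC cells and 0.662 ± 1.36 in AEC cells, for a log2 ratio of -0.39. When AEC 6 was left out, the log2 ratio was 0.20. That cell had the highest AEC value of *Myc*, so leaving it out could only raise the ratio. *Mycn* averaged 1.88 ± 1.46 in HEC cells and 3.92 ± 18.8 in AEC cells, a log2 ratio of -1.03. AEC 7 held 97.7% of the AEC sum of *Mycn*, and without AEC 7 its log2 ratio was 3.36.

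**Figure D5:**
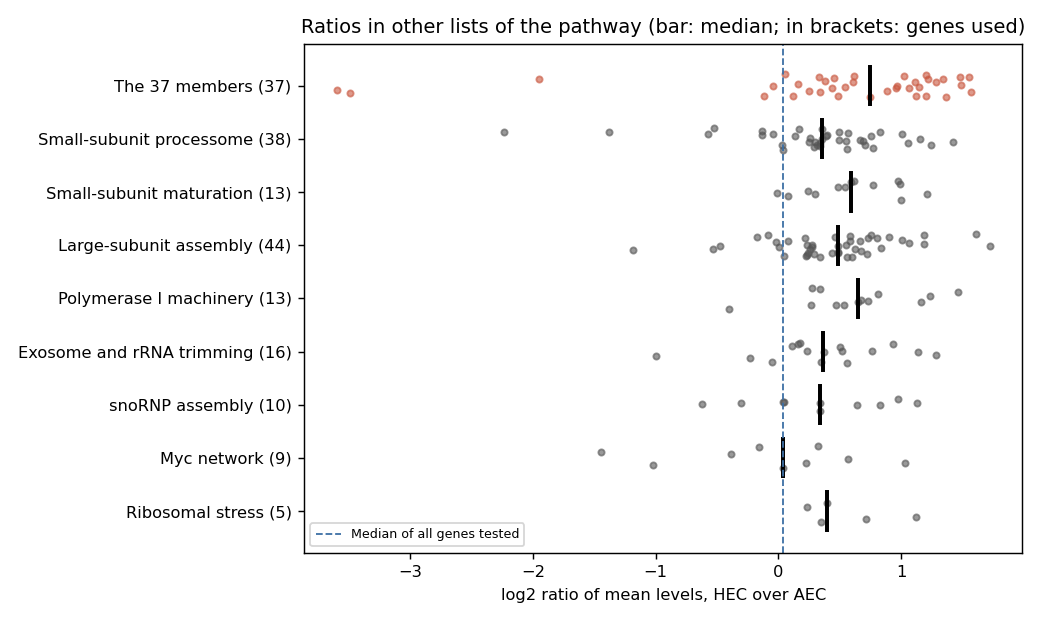
log2 ratio of HEC over AEC mean levels for each gene (points) in the 37 members and in 8 other lists of the pathway, with list medians as bars and the median of all genes, 0.04, as a dashed line. Bars run from 0.75 for the members to 0.04 for the Myc network.

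Within each group the summed level of the 33 members, in which *Npm1* and *Ncl* weigh most, varied with other lists. Across the 24 HEC cells, Spearman's rho with the summed large-subunit assembly list was 0.77, with the small-subunit processome 0.73 and with polymerase I machinery 0.69; across the 24 AEC cells it was 0.55, 0.53 and 0.14. With the summed arterial markers rho was -0.77 across HEC cells and -0.50 across AEC cells, and with the hemogenic markers 0.25 and 0.57. With the number of reads of the cell rho was 0.39 across HEC cells and -0.22 across AEC cells. Values of 1 cell share its library and a fixed total, so these are descriptions of the cells.

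Genes of other kinds moved with the groups too. All 15 dissociation stress genes used (of 16 in the list) had a ratio above 0, with a median of 1.38 and summed levels of 48.9 to 160 in HEC cells and 16.008 to 73.3 in AEC cells. Within HEC cells rho of this sum with the members' sum was 0.55, and within AEC cells it was 0.39. Cycling genes differed little, with medians of 0.17 for the G2 and M phase list (11 of 16 above 0) and 0.26 for the S phase list (9 of 16 above 0).

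All 7 mesenchymal markers used (of 10) had a ratio of means below 0, with summed levels of 1.23 to 31.5 in HEC cells and 0.833 to 149 in AEC cells. The medians of these sums were alike, at 3.87 in HEC cells and 3.55 in AEC cells. The highest AEC sums were those of AEC 11, 19 and 20. Of 7 erythroid markers used (of 11), 5 were above 0, with sums of 26.4 to 188 in HEC cells and 10.5 to 166 in AEC cells. The medians of these erythroid sums were 40.1 in HEC cells and 15.4 in AEC cells. Their median log2 ratio was 0.65, and 1.74 without the 6 shallow AEC cells. The 3 macrophage markers used (of 9) were above 0, with sums of 0.0828 to 3.71 in HEC cells and 0 to 0.754 in AEC cells. Medians of the macrophage sums were 1.00 in HEC cells and 0.0839 in AEC cells. Pan-endothelial markers were above 0 for 1 of 12, with sums of 5.92 to 71.8 in HEC cells and 1.73 to 83.7 in AEC cells. Sums of neural markers reached at most 4.74 and of epithelial markers at most 3.68 in any cell. *Dcn*, *Adgre1*, *C1qa*, *C1qb*, *Elavl3*, *Sox10* and *Cdh1* were not analysed here, and none of the measured markers was at 0 in all 48 cells. The part of stress genes and of other cell types in the members' difference was not tested.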

How the data were processed

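Single sorted cells were lysed, and full-length cDNA of their polyA RNA was sequenced by Nanopore. Per the submitters' processing notes, minimap2 2.18-r1015, Salmon 1.1.0 and build mm10 were used; the annotation release and any filter were not stated in the labels. The authors deposited a signal per transcript for each cell, namely reads per 10000 reads of the cell. Every value (100%) was a whole multiple of 1 read within 0.01, which gave back reads and depth (13261 to 8897958 per cell).

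Transcripts were summed to genes by GENCODE M21 (52799 matched, 128 not). With 1 sample a group, means over cells were compared as log2 ratios (pseudocount 0.1), with no test; "2-fold" marks size only. Median-of-ratios scaling used the 855 genes above 0 in every cell. Named for per-cell values were the 3 largest absolute ratios of each role, ratios of 0 or less, genes with over 50% of a group sum in 1 cell and genes whose major isoform moved by at least 10 points; other lists show their 2 highest and lowest genes with a mean of at least 0.5. Isoforms were named at a share of 10% or a difference of 5 points. *Npm1*, *Nop10* and *Heatr1* values, *Polr1a* isoform shares, correlations within groups and the 3 promoters were picked after values were seen. Members and lists were chosen with earlier results of these data known. On simulated data a log2 change of 1 came back shrunk by the pseudocount. Scripts ran in Python 3.11.15 (matplotlib 3.10.9 for figures, pandas 2.3.3, scipy 1.17.1, numpy 2.4.6).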

Additional observations from a re-analysis of the deposited data

How the results depend on the processing

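The median log2 ratio of the members and its sign held under all alternatives tried, between 0.32 (pseudocount 1) and 1.54 (ratio of medians over cells), and from 0.70 to 0.92 when each cell was left out in turn. The 15 members at least 2-fold higher became 14 to 17 with 1 cell left out. With median-of-ratios scaling the count was 7, against 3.61% of all genes. A pseudocount of 1 left 3, against 0.242% of all genes. The difference of mean log2(value + 1) also left 3, against 0.345%. The ratio of medians gave 30, where 29.6% of all genes pass. All 15 stayed above 0 in all 62 alternatives, and their lowest ratio was 0.31; of all 37 members, 24 kept 1 sign. The summed level of all 37 members had a log2 ratio of 0.05 to 0.60 with 1 cell left out.

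Of the 14 alternatives other than leaving out 1 cell, the ratio was above 0 in 7 for *Pa2g4*, 5 for *Ddx18* and 7 for *Mdn1*, and below 0 in the others. *Pa2g4* was at 0.35 with the difference of mean log2 values, 0.96 with medians, 0.52 with pooled reads, 0.71 without the 6 shallowest AEC cells, and 0.84 when the 6 cells with the fewest genes were left out of either group. *Ddx18* was at 0.24 with medians and at 0.39 and 0.42 under those last 2 settings. *Mdn1* was at 1.18 with medians, 0.10 with pooled reads, 0.39 with protein-coding transcripts only, and at 0.36 and 0.55 under those last 2 settings. Alternatives chosen after seeing the data gave *Pa2g4* 0.61, *Ddx18* 0.50 and *Mdn1* 0.48 without AEC 7 and 10, and 0.77, 0.51 and 0.77 without AEC 6, 7 and 10. Leaving out 1 cell at a time, *Pa2g4* ran from -2.01 to 0.60 (without AEC 10), *Ddx18* from -3.62 to 0.51 (without AEC 7) and *Mdn1* from -3.94 to 0.44 (without AEC 7).

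The share of Pa2g4-201, HEC minus AEC, was -5.02 points as a mean of shares within cells, -8.47 with pooled reads, -3.91 without the 6 shallowest AEC cells and -9.03 to 17.002 with 1 cell left out; that of Pa2g4-202 was 5.02, 8.47, 3.91 and -17.002 to 9.03. No paired analysis was possible because no result comes from a test and the numbers in the titles only name cells. Depth limits low members most, since 1 read in AEC 7 equals a level of 0.754. Protein features of the members were not analysed here.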
